A study of Mus musculus with 27 samples.

Results

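The comparison described here is that of mouse meninges 24 h after ultraviolet light was shone on the skull with mouse meninges 0.5 h after it. Its members are all libraries with those labels, 3 at 24 h and 3 at 0.5 h, which makes 6 of the 27 libraries of the series, and 3 meninges libraries without UVB served as control. The light was UVB at 311 nm and 2 mW, directed at the interparietal bone, which closes the skullcap at the back. Both irradiated groups had the same light and differ in the time until collection. The labels give no strain, genotype, age or sex, and of the controls they say only that they had no UVB, not whether they were handled alike or lit elsewhere on the body. They do not say whether replicates came from separate animals either, so each p-value speaks of the spread among these libraries, which may be technical. The other libraries of the series are skull and brain at the same times and without UVB.

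The meninges are the membranes between skull and brain. The outer layer, the dura, holds fibroblasts, blood and lymphatic vessels, resident macrophages and other immune cells, and the inner layers, arachnoid and pia, hold barrier cells and further fibroblasts and macrophages. Tissue that answers an injury commonly changes its matrix-degrading enzymes and their inhibitors, acute-phase proteins, and growth of its cells. Most tissues also carry a molecular clock, in which the activators BMAL1 and CLOCK drive their own repressors and a set of output genes over the day.

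Each meninges library held 14961038 to 18174269 counts over genes, within 14208961 to 27305294 in the series. Markers of meningeal fibroblasts, dura, arachnoid and border-associated macrophages were found in every meninges library, and so were those of neighbouring tissue scraped with them. Summed over 10 skeletal muscle markers, the level was 131, 34.9 and 24.3 CPM (a gene's counts, scaled to a common library total) in the 24 h libraries 1, 2 and 3, against 1486, 66.3 and 3138 CPM at 0.5 h and 62.9, 6547 and 40.1 CPM in control. Summed over 11 choroid plexus markers it was 15000, 544 and 4303 CPM at 24 h, against 5336, 3967 and 3942 CPM at 0.5 h and 470, 5529 and 6914 CPM in control. Thus 0.5 h libraries 1 and 3 carried more muscle RNA than any 24 h library, and 24 h library 1 stood apart in choroid plexus RNA. None of these muscle or plexus markers passed the test between 24 h and 0.5 h. In bulk RNA, fewer cells of a type and less RNA per cell cannot be told apart.

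Between the 2 times, 434 of 18542 tested genes (2.34%) passed the edgeR quasi-likelihood test with Benjamini-Hochberg adjustment at 0.05. Of these, 198 (1.07% of tested genes) rose and 236 (1.27%) fell at 24 h relative to 0.5 h. The changes were mostly moderate: 118 of the 434 exceeded 1 on the log2 scale, and the median size was 0.69. The median log2 fold change of all tested genes was 0.0035, with 9381 positive and 9161 negative. Every one of the 434 had 24 h libraries that did not overlap the 0.5 h libraries, which was true of 23.4% of all tested genes. The count rested on each library: leaving out 0.5 h library 1, 2 or 3 left 73, 127 or 120 genes, leaving out 24 h library 2 or 3 left 139 or 233, and leaving out any other library left 318 to 476. A call is termed kept below where it passed in all 9 fits that left out 1 library, which held for 61 of the 434, 20 higher and 41 lower. The plot of all genes shows these calls by level.

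**Figure D1:**
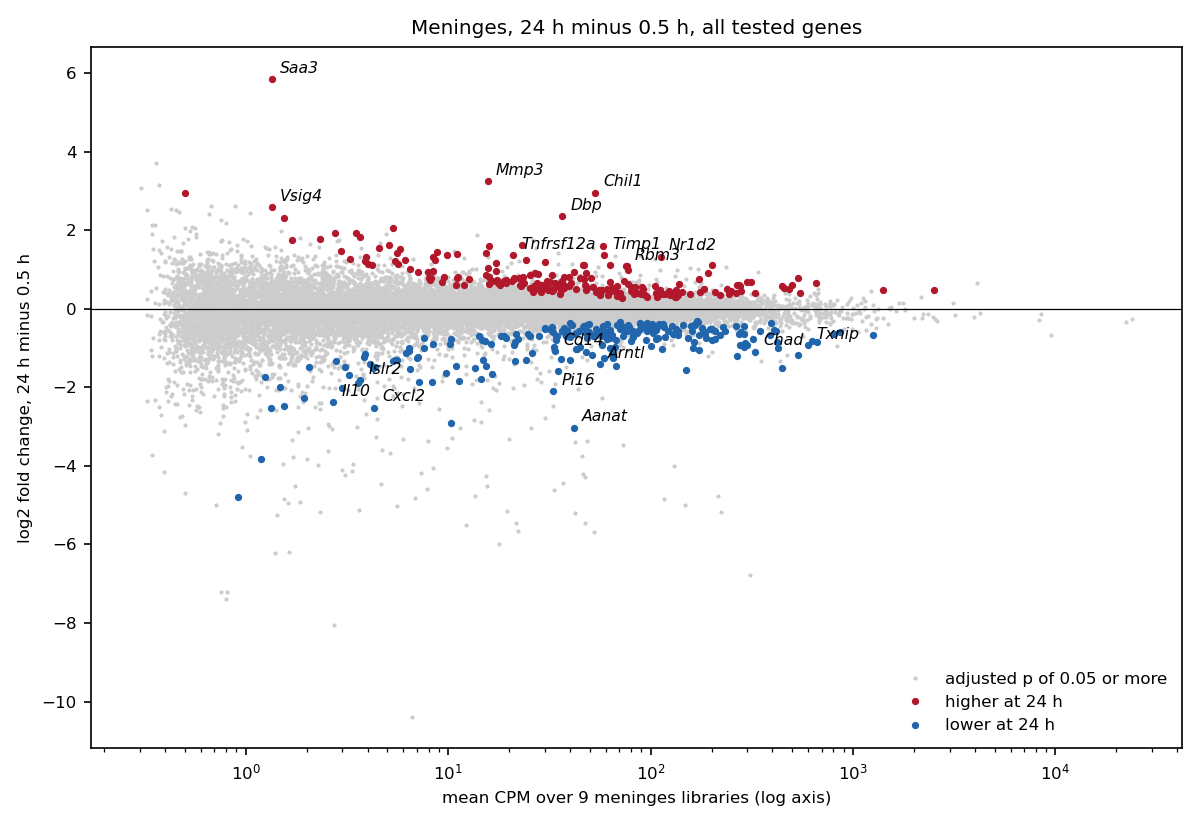
Log2 fold change, 24 h minus 0.5 h in meninges (vertical axis), against the mean level over 9 meninges libraries in CPM (horizontal log axis). Red and blue points are the 198 genes that rose and the 236 that fell at an adjusted p under 0.05, grey points did not pass; the grey points far below 0 did not pass the test and include skeletal muscle genes such as Myh4 (-6.78).

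Well-measured genes with the largest rises included Mmp3 and Chil1. Mmp3, which encodes stromelysin 1, an enzyme that cuts matrix proteins and activates other metalloproteinases, was at 28.2, 48.4 and 43.4 CPM at 24 h, against 3.79, 3.15 and 5.61 CPM at 0.5 h and 2.47, 2.84 and 3.19 CPM in control. All 24 h libraries lay far above every other library. Its log2 fold change was 3.25 ± 0.26 (SE, 3 libraries each; edgeR adjusted p = 0.000589). The gene lies on the plus strand of GRCm38 at chr9:7445822-7455975. Chil1 (chr1:134182176-134190181, plus strand), a secreted chitinase-like protein made by macrophages and astrocytes in inflamed tissue, was at 129, 145 and 100 CPM at 24 h, against 16.7, 15.7 and 15.6 CPM at 0.5 h and 16.0, 16.3 and 24.3 CPM in control. The 0.5 h libraries were within the control range or just under it, and the 24 h libraries overlapped neither. Its log2 fold change was 2.96 ± 0.19 (SE; edgeR adjusted p = 0.000321), the smallest p of the comparison. Both calls were kept.

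Saa3, an acute-phase protein that mouse macrophages and other cells outside the liver make, had the largest fitted rise among the genes that passed. It held 195 counts over the 24 h libraries and 3 counts over the 0.5 h libraries, and 3 counts over the control libraries. The ratio of 24 h to 0.5 h counts, on total counts, was 67.6 with a 95% exact Clopper-Pearson interval of 22.8 to 331, which covers counting error only. At 24 h the level was still low, 3.65, 5.15 and 2.98 CPM in the 3 libraries (edgeR adjusted p = 0.00149). Of 12 tested acute-phase and injury-associated genes, Chil1 and Saa3 rose and none fell, and the median log2 fold change of the 12 was 0.024. The liver-type family members Saa1 and Saa2 were too low to test.

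Protease inhibitors moved in both directions. Timp1, which blocks metalloproteinases, was at 79.3, 102 and 105 CPM at 24 h, against 36.6, 36.6 and 37.4 CPM at 0.5 h and 44.5, 38.4 and 49.7 CPM in control, a log2 fold change of 1.37 ± 0.12 (SE; edgeR adjusted p = 0.000871). Pi16, a secreted inhibitor-like protein that marks a fibroblast population found around vessels in many tissues, was at 12.2, 12.2 and 12.7 CPM at 24 h, against 43.9, 47.5 and 66.2 CPM at 0.5 h and 34.6, 29.1 and 38.2 CPM in control. The 3 values of Pi16 at 24 h were close to each other and below every other library, and its log2 fold change was -2.09 ± 0.16 (SE; edgeR adjusted p = 0.000585). It shares 222 exon bases with an unnamed gene on the other strand, and the strand setting of the counting is not known. Of 12 tested inhibitors 2 rose and 1 fell, all 3 calls were kept, and the list's median was 0.035.

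Among 17 tested stromal metalloproteinases Mmp3 rose and Adamts15 fell, with a list median of -0.21. Adamts15, which cuts the proteoglycan versican, was at 29.3, 31.9 and 37.9 CPM at 24 h, against 64.1, 75.0 and 79.4 CPM at 0.5 h and 102, 90.6 and 71.5 CPM in control (log2 fold change -1.14 ± 0.14, SE; edgeR adjusted p = 0.00491; kept). Structural matrix genes moved little. Of 19 tested collagens 1 fell (Col5a3, -0.63), and the median was -0.091, while the summed level of collagens and osteoblast genes was itself uneven: 12 osteoblast and osteocyte markers summed to 14250, 29620 and 23290 CPM at 24 h, against 24660, 31060 and 24820 CPM at 0.5 h. Of 26 tested matrix glycoproteins and proteoglycans 2 fell, Tnxb (-0.61 ± 0.09, SE; edgeR adjusted p = 0.0111) and Prelp (-0.56 ± 0.12; 0.0333), with a median of -0.15. Tnxb, tenascin X, was kept but did not pass over all 27 libraries (adjusted p = 0.263). Prelp did not pass without 24 h library 2 or 3, any 0.5 h library or control library 1 (adjusted p up to 0.153), and Col5a3 did not without 24 h library 1 or 3, any 0.5 h library or control library 1 or 2 (up to 0.136).

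Further genes of small p rose with these. Tnfrsf12a, the receptor for the cytokine TWEAK and a gene often raised in injured tissue, was at 33.8, 30.5 and 27.6 CPM at 24 h, against 10.5, 13.4 and 11.5 CPM at 0.5 h and 20.3, 20.6 and 19.9 CPM in control (log2 fold change 1.38 ± 0.13, SE; edgeR adjusted p = 0.000871). The control libraries lay between the groups, and 0.5 h was itself below control by a log2 fold change of -0.78 (edgeR adjusted p = 0.0177, in a contrast in which 0.874% of tested genes passed). Rbm3, which binds RNA and is induced by cold, was at 119, 111 and 101 CPM at 24 h, against 44.9, 56.3 and 55.3 CPM at 0.5 h and 68.5, 65.4 and 64.1 CPM in control (1.08 ± 0.10; edgeR adjusted p = 0.000871). Hmox1, which breaks down heme, was at 70.7, 63.1 and 75.0 CPM at 24 h, against 35.9, 31.7 and 28.8 CPM at 0.5 h and 35.3, 38.9 and 43.9 CPM in control (1.11 ± 0.12; edgeR adjusted p = 0.00149). All 24 h values of Hmox1 exceeded every other value, though it did not pass over all 27 libraries (adjusted p = 0.0752). These calls were kept.

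On the falling side, the smallest p after Pi16 belonged to Rgs9bp, Chad, Cd14 and Arl4d, and all were kept. Rgs9bp, an anchor of a G-protein regulator known from photoreceptors, was at 12, 11.4 and 10.8 CPM at 24 h, against 25, 22.8 and 26.2 CPM at 0.5 h and 43.8, 40.6 and 39.8 CPM in control (log2 fold change -1.12 ± 0.10, SE; edgeR adjusted p = 0.000871). Chad, chondroadherin, a matrix protein of cartilage and bone, was at 175, 190 and 198 CPM at 24 h, against 385, 386 and 428 CPM at 0.5 h and 440, 411 and 348 CPM in control (-1.09 ± 0.10; edgeR adjusted p = 0.000938). Rgs9bp thus stood lower at 0.5 h than in control and lower again at 24 h, whereas Chad at 0.5 h lay within the control range. Cd14, the co-receptor for bacterial lipopolysaccharide on macrophages and monocytes, had 16.5, 16.5 and 17.6 CPM at 24 h, against 37.9, 34.7 and 34.3 CPM at 0.5 h (-1.08 ± 0.10; edgeR adjusted p = 0.000961, and 0.142 over all 27 libraries). Arl4d, a small GTPase of the ARF family, fell by 1.24 ± 0.12 on the log2 scale (SE; edgeR adjusted p = 0.0011).

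**Figure D2:**
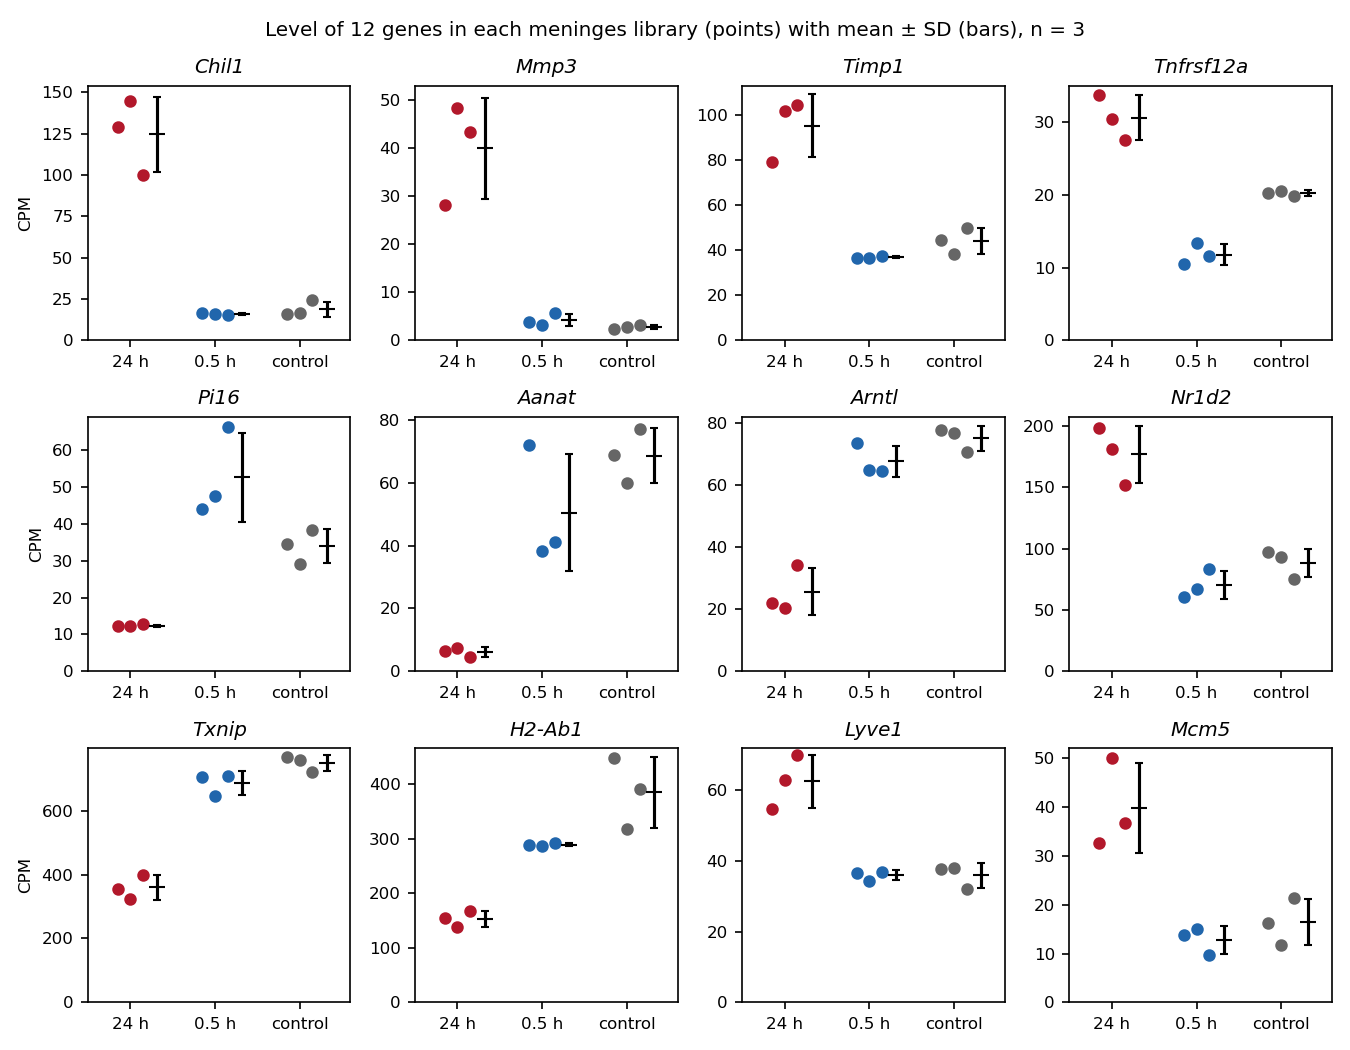
Level of 12 genes in CPM (vertical axes, from 0) in each meninges library at 24 h, at 0.5 h and in control; points are libraries and bars the mean ± SD (n = 3). For each gene the 24 h points lie apart from the 0.5 h points, as they do in every gene that passed. Chil1 was at 100 to 145 CPM against 15.6 to 16.7 CPM.

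Genes of the circadian clock changed in both directions. Of 6 tested clock activators 2 fell and none rose, Arntl and Npas2. Arntl, which encodes BMAL1 (chr7:113207465-113314126, plus strand), was at 22.2, 20.4 and 34.3 CPM at 24 h, against 73.5, 65.0 and 64.6 CPM at 0.5 h and 77.8, 76.7 and 70.6 CPM in control. The 0.5 h libraries were near control and the 24 h libraries below both, with a log2 fold change of -1.40 ± 0.17 (SE; edgeR adjusted p = 0.00509; kept). Npas2, a partner that can stand in for CLOCK, was at 9.38, 12.7 and 22.5 CPM at 24 h, against 46.3, 47.6 and 39.6 CPM at 0.5 h (-1.58 ± 0.28; edgeR adjusted p = 0.0288). Npas2 did not pass without 24 h library 2, any 0.5 h library or any control library (adjusted p up to 0.122). Clock itself had a log2 fold change of -0.090 and did not pass.

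Of 11 tested clock repressors 5 rose and 1 fell, with a median of 0.57. Nr1d2, which encodes the BMAL1 repressor REV-ERB beta, was at 198, 181 and 152 CPM at 24 h, against 61.0, 66.8 and 83.3 CPM at 0.5 h and 96.9, 93.4 and 75.2 CPM in control (log2 fold change 1.33 ± 0.14, SE; edgeR adjusted p = 0.00257; kept). Ciart, a repressor of the BMAL1 complex, was at 13.6, 10.4 and 9.31 CPM at 24 h, against 3.20, 4.90 and 5.33 CPM at 0.5 h and 9.27, 9.83 and 10.1 CPM in control (1.31 ± 0.22; edgeR adjusted p = 0.0156). For Ciart the 24 h libraries overlapped control and the 0.5 h libraries were the low ones. Per3, a period gene, was at 140, 146 and 86.4 CPM at 24 h, against 53.8, 60.0 and 59.6 CPM at 0.5 h (1.10 ± 0.18; edgeR adjusted p = 0.0189). Per2 and Bhlhe41 were named after their values were seen, to complete the count, and had log2 fold changes of 1.24 and 0.67 (edgeR adjusted p = 0.0196 and 0.024). Nfil3, the repressor that competes with the PAR bZIP factors for their sites, fell: 16.9, 15.1 and 25.4 CPM at 24 h, against 43.6, 36.0 and 49.8 CPM at 0.5 h and 94.8, 91.4 and 91.1 CPM in control (-1.17 ± 0.19; edgeR adjusted p = 0.0144). Its 3 groups did not overlap each other. Without 0.5 h library 1 only Nr1d2 of the 6 passed. Beyond that, the call of Ciart was lost without 0.5 h library 2, that of Nfil3 without 24 h library 1 or 0.5 h library 3, that of Per2 without 24 h library 2 or 0.5 h library 2 or 3, and those of Per3 and Bhlhe41 without 24 h library 1 or 2 or 0.5 h library 2 or 3 (adjusted p up to 0.116).

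Of 9 tested clock output genes 5 rose and none fell, with a median of 0.67. Dbp, the strongest rhythmic PAR bZIP factor in many tissues, was at 103, 89.4 and 46.4 CPM at 24 h, against 9.84, 14.6 and 21.9 CPM at 0.5 h and 11.7, 15.9 and 15.4 CPM in control (log2 fold change 2.37 ± 0.38, SE; edgeR adjusted p = 0.0267). Its relatives Tef, at 313, 299 and 204 CPM at 24 h against 146, 142 and 147 CPM at 0.5 h, and Hlf, at 92.3, 87.2 and 80.8 CPM at 24 h against 55.9, 52.5 and 54.7 CPM at 0.5 h, rose by 0.91 ± 0.14 and 0.67 ± 0.12 on the log2 scale (edgeR adjusted p = 0.0111 and 0.0194). Tspan4, a membrane tetraspanin, rose by 0.99 ± 0.12 (edgeR adjusted p = 0.00319) and Wee1, the kinase that holds back entry into mitosis, by 0.78 ± 0.14 (edgeR adjusted p = 0.0209). Tspan4 was kept. The others were lost without 0.5 h library 1 or 2, Hlf and Wee1 also without 0.5 h library 3 or 24 h library 2, and Dbp also without 24 h library 1 or 2 or control library 2 or 3 (adjusted p up to 0.116). Dbp shares 539 exon bases with Sphk2, Tspan4 292 with Chid1 and Tef 193 with Gm17597, each on the other strand. The labels give no clock time of collection, so a difference in it cannot be told apart from time after the light.

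The promoters of the clock genes named by list were searched on both strands, in RefSeq windows of GRCm38.p6 from 250 bases before to 50 after the start, for the E-box CACGTG, the D-box TTATGTAA and the cAMP response element TGACGTCA. They are shown because BMAL1 and CLOCK bind E-boxes and the PAR bZIP factors and NFIL3 bind D-boxes. Of 10 such genes that passed, 9 had a promoter in the table and 5 held a match, while 4, among them Arntl and Nr1d2, held none of these letters in the windows searched. An E-box was present in 7.15%, a D-box in 0.938% and a cAMP response element in 1.79% of all 32851 promoter windows. The 250 bases before the start follow, 5′ to 3′ on the gene's strand, with the matches in capitals, first 3 genes with E-boxes, then Per3 with D-boxes and Hlf with the cAMP response element.
Tspan4 promoter, chr7:141476130-141476379, plus strand: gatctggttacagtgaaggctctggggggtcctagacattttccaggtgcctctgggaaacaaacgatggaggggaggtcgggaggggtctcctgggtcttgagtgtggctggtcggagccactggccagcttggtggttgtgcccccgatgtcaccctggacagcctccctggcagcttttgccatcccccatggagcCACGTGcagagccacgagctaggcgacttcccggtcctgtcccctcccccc
Tef promoter, chr15:81802423-81802672, plus strand: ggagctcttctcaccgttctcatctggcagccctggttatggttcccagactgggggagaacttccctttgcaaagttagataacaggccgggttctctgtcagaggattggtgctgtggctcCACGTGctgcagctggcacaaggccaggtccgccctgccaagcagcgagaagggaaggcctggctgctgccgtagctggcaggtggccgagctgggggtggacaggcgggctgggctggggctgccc
Ciart promoter, chr3:95882229-95882478, minus strand: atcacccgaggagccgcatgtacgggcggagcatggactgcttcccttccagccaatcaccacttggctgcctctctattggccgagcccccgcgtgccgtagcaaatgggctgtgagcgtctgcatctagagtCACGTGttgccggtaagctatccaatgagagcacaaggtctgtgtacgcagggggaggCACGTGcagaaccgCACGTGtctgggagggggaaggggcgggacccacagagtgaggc
Per3 promoter, chr4:151044666-151044915, minus strand: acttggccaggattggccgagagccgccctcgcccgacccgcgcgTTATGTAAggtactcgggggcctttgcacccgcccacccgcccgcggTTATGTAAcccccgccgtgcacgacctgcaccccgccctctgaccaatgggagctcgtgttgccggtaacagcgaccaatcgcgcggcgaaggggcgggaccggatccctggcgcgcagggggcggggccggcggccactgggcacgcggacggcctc
Hlf promoter, chr11:90390918-90391167, minus strand: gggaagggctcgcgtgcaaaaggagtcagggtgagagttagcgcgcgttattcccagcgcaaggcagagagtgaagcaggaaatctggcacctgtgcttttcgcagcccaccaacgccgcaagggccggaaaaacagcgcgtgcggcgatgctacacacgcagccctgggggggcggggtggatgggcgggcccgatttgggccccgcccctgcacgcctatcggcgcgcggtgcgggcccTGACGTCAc
Ciart held 3 E-boxes, 116, 58 and 44 bases before the start, and Per3 held 2 D-boxes, 205 and 158 bases before it. In the windows shown the E-box of Tspan4 lay 51 and that of Tef 127 bases before the start. The table holds 2 windows for each of these genes, and the other window of Tef held 1 E-box too while that of Tspan4 held none. The cAMP response element of Hlf lay 9 bases before it.

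Among the named genes whose calls were kept, Aanat fell most. It encodes the enzyme that makes the last precursor of melatonin and is known for its daily rhythm in the pineal gland, which lies under the rear skull. Its level was 6.39, 7.51 and 4.62 CPM at 24 h, against 71.8, 38.4 and 41.3 CPM at 0.5 h and 68.6, 59.8 and 77.2 CPM in control (log2 fold change -3.03 ± 0.28, SE; edgeR adjusted p = 0.00271; chr11:116586432-116597680, plus strand). All 24 h libraries were below every other library. The other 11 pineal markers tested did not pass, among them Tph1, the enzyme of the first step, at 526, 636 and 628 CPM at 24 h against 992, 676 and 690 CPM at 0.5 h (log2 fold change -0.40), and Asmt, the enzyme of the last step, at 36.3, 29.0 and 28.2 CPM at 24 h against 44.7, 42.2 and 24.6 CPM at 0.5 h (-0.25). Summed over the 12 pineal markers, the level was 1337, 1436 and 1358 CPM at 24 h, against 1842, 1424 and 1473 CPM at 0.5 h and 1769, 1746 and 2053 CPM in control. Of 20 tested melatonin and photoreceptor-like genes 3 fell and none rose (median -0.14), Aanat, Gnat2 (-0.43 ± 0.09) and Pde6c (-0.41 ± 0.09), the last 2 being parts of the cone phototransduction chain (edgeR adjusted p = 0.0381 and 0.0398). Both of those were lost without 24 h library 1 or 3, any 0.5 h library or control library 1 or 2 (adjusted p up to 0.16).

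Some genes induced by glucocorticoids and by FoxO factors fell, while most members of both lists did not pass. Of 21 tested glucocorticoid targets 7 fell and none rose, and the median was -0.72. Map3k6, a stress-activated kinase, was at 16.4, 21.5 and 24.0 CPM at 24 h, against 40.5, 42.8 and 41.8 CPM at 0.5 h and 74.0, 68.6 and 61.6 CPM in control (log2 fold change -1.01 ± 0.13, SE; edgeR adjusted p = 0.00564; kept). Ddit4, an inhibitor of the growth kinase mTOR, was at 118, 156 and 230 CPM at 24 h, against 493, 438 and 512 CPM at 0.5 h and 662, 740 and 654 CPM in control (-1.52 ± 0.21; edgeR adjusted p = 0.0111). Tsc22d3, which encodes the anti-inflammatory protein GILZ, was at 404, 351 and 435 CPM at 24 h, against 718, 699 and 667 CPM at 0.5 h (-0.81 ± 0.13; edgeR adjusted p = 0.0117). In Map3k6 and Ddit4 the 24 h libraries were lowest, the 0.5 h libraries intermediate and the control libraries highest, with no overlap. Tsc22d1, Nfkbia, Klf9 and Dusp1 also fell, Dusp1 named after its values were seen. Without 0.5 h library 1, Map3k6 alone of the 7 passed, while leaving out other libraries left up to 10 members called. Ddit4 was also lost without 24 h library 2 (adjusted p up to 0.0525) and Tsc22d3 without 0.5 h library 2 (up to 0.0671).

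Of 22 tested FoxO and insulin signalling genes 7 fell and none rose, with a median of -0.44. Txnip, which binds thioredoxin and limits glucose uptake, was at 356, 324 and 400 CPM at 24 h, against 706, 645 and 709 CPM at 0.5 h and 767, 758 and 721 CPM in control (log2 fold change -0.93 ± 0.10, SE; edgeR adjusted p = 0.00149; kept). Arrdc3, an arrestin-domain relative of Txnip, was at 62.5, 61.4 and 68.8 CPM at 24 h, against 112, 97.2 and 116 CPM at 0.5 h and 160, 156 and 127 CPM in control (-0.76 ± 0.10; edgeR adjusted p = 0.00727; kept). Depp1, a FoxO target, fell by 1.28 ± 0.22 on the log2 scale and the factor Foxo3 by 0.56 ± 0.11 (edgeR adjusted p = 0.0194 and 0.0233). Igfbp6, Foxo1 and Pik3r1, named after their values were seen, fell by 0.44, 0.44 and 0.59. Only Txnip and Arrdc3 passed without 24 h library 2 or without any 1 of the 0.5 h libraries. Txnip shares 606 exon bases with Gm15441 on the other strand.

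**Figure D3:**
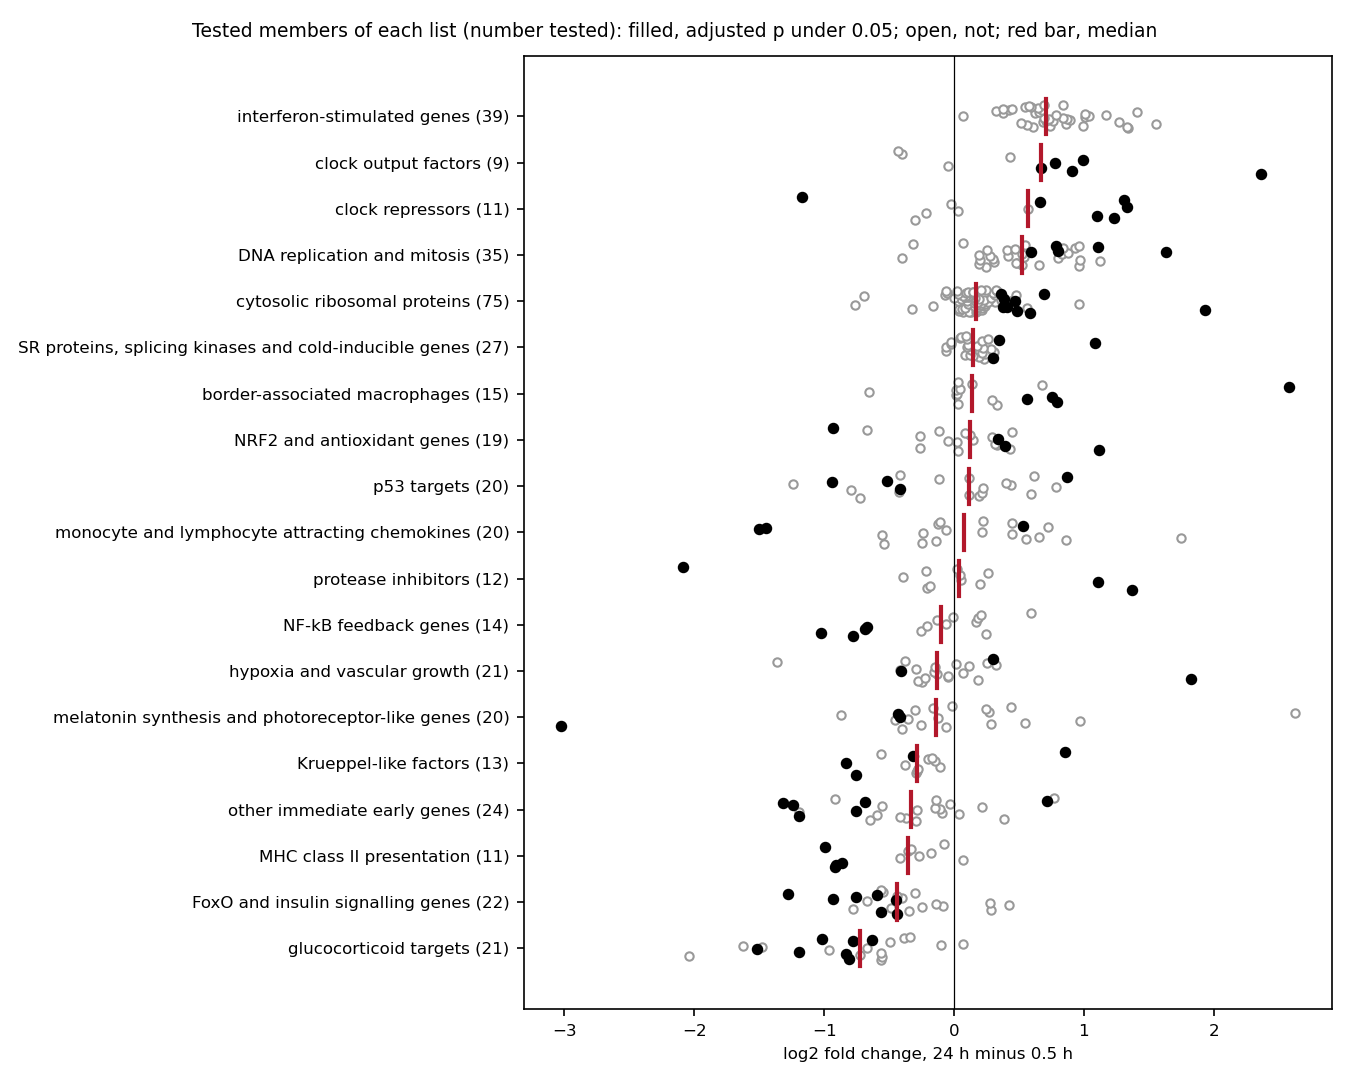
Log2 fold change, 24 h minus 0.5 h (horizontal axis), of each tested member of the lists with at least 3 called members and of the interferon-stimulated genes; filled points passed at an adjusted p under 0.05, open points did not, and red bars are medians. Medians run from -0.72 in glucocorticoid targets to 0.71 in interferon-stimulated genes, in which no member passed.

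A minority of early response and NF-kB feedback genes passed, and those that did were lower at 24 h except for Srf. Of 12 tested AP-1 family genes Jun and Fosb fell and none rose (median -0.46). Jun was at 136, 109 and 140 CPM at 24 h, against 197, 232 and 184 CPM at 0.5 h and 323, 320 and 348 CPM in control, and Fosb at 48.0, 42.8 and 69.0 CPM at 24 h, against 140, 205 and 124 CPM at 0.5 h and 210, 250 and 257 CPM in control (log2 fold changes -0.67 ± 0.11 and -1.55 ± 0.23, SE; edgeR adjusted p = 0.0156 and 0.0179). In both genes the 24 h libraries were lowest and control highest. Of 7 tested Egr and Nr4a genes none passed. Of 24 other immediate early genes 1 rose, Srf, the serum response factor (0.72 ± 0.11; edgeR adjusted p = 0.0111; kept), and 5 fell: Rgs2 (-0.69), Klf2 (-0.75), Apold1 (-1.24), Rgs1 (-1.32) and Dusp1 (-1.19), the last 2 outside the naming rule. Apold1, an early gene of endothelial cells, was at 20.7, 20.4 and 25.8 CPM at 24 h, against 41.0, 50.6 and 66.6 CPM at 0.5 h and 148, 107 and 104 CPM in control (edgeR adjusted p = 0.0194). None of the falling early genes was kept: Jun was lost without 24 h library 2 or 0.5 h library 1 or 2, Fosb without 24 h library 1 or 2 or 0.5 h library 1, and of the 5 others none passed without 0.5 h library 2 (adjusted p of the 7 up to 0.158).

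Of 14 tested NF-kB feedback genes 4 fell and none rose, with a median of -0.097. Tnfaip2 was at 24.9, 27.2 and 27.2 CPM at 24 h, against 41.2, 41.2 and 43.7 CPM at 0.5 h and 47.1, 56.1 and 50.2 CPM in control (log2 fold change -0.67 ± 0.09, SE; edgeR adjusted p = 0.0081; kept, but 0.356 over all 27 libraries). Nfkbia, the inhibitor I-kappa-B alpha, was at 96.8, 102 and 143 CPM at 24 h, against 196, 183 and 205 CPM at 0.5 h and 295, 306 and 346 CPM in control (-0.77 ± 0.14; edgeR adjusted p = 0.0183). Nfkbiz and Tnfaip3, also brakes or partners of NF-kB, fell by 1.02 ± 0.18 and 0.68 ± 0.15 (edgeR adjusted p = 0.0204 and 0.0393). All 4 were lowest at 24 h and highest in control. The 24 h and the 0.5 h libraries did not overlap, as in every gene that passed. Without any 1 of the 0.5 h libraries only Tnfaip2 of the 4 passed. Of 13 tested Krüppel-like factors Klf2, Klf9 and Klf13 fell and Klf16 rose (median -0.29). None of these 4 passed without any 1 of the 0.5 h libraries.

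The classical MHC class II chains H2-Ab1, H2-Aa and H2-Eb1 and the invariant chain Cd74 fell, and the other antigen presentation genes of that list did not pass. Of 11 tested members 4 fell and none rose, with a median of -0.35. H2-Ab1, a class II chain, was at 156, 138 and 167 CPM at 24 h, against 289, 287 and 292 CPM at 0.5 h and 448, 318 and 391 CPM in control (log2 fold change -0.91 ± 0.12, SE; edgeR adjusted p = 0.00582). Cd74, the invariant chain that guides class II molecules, was at 245, 229 and 224 CPM at 24 h, against 449, 456 and 486 CPM at 0.5 h and 689, 489 and 579 CPM in control (-0.99 ± 0.12; edgeR adjusted p = 0.00295). H2-Aa and H2-Eb1 fell by 0.91 ± 0.13 and 0.86 ± 0.12 (edgeR adjusted p = 0.00759 and 0.00727). In all 4 the 24 h libraries were lowest and the control libraries highest, and the calls were kept. In the fit over all 27 libraries, in which the spread is drawn from all tissues, none of the 4 passed (adjusted p of 0.289 to 0.34) at unchanged fold changes. The summed level of 10 dendritic cell markers was 174, 193 and 151 CPM at 24 h against 151, 168 and 151 CPM at 0.5 h, and that of 10 B cell markers 168, 184 and 155 CPM against 218, 231 and 193 CPM, and of these markers only Ebf1 passed (-0.37, edgeR adjusted p = 0.043), a call lost without any 1 library other than control library 3 (adjusted p up to 0.191). Their part in the class II result was not tested. Of 17 MHC class I genes none passed (median 0.23).

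Markers of border-associated macrophages, the resident macrophages of the meninges, included 4 genes that rose and none that fell of 15 tested, and 14 of the 15 had a positive fold change (median 0.14). Over all tested genes 1.07% rose and 9381 of 18542 were positive. Lyve1, a hyaluronan receptor of these macrophages and of lymphatic vessels, was at 54.7, 62.8 and 69.7 CPM at 24 h, against 36.6, 34.3 and 36.9 CPM at 0.5 h and 37.7, 38.1 and 31.9 CPM in control (log2 fold change 0.80 ± 0.11, SE; edgeR adjusted p = 0.0075; kept). F13a1, a clotting factor subunit made by macrophages, was at 221, 261 and 243 CPM at 24 h, against 142, 152 and 135 CPM at 0.5 h and 160, 137 and 112 CPM in control (0.76 ± 0.12; edgeR adjusted p = 0.0134), and Cbr2, a carbonyl reductase, rose by 0.56 ± 0.09 (edgeR adjusted p = 0.0139). Vsig4, a complement receptor of resident macrophages, rose by 2.58 ± 0.42 at low levels, with 2.57, 2.90 and 3.67 CPM at 24 h against 0.466, 0.537 and 0.504 CPM at 0.5 h (edgeR adjusted p = 0.014). At 24 h every library exceeded every 0.5 h and control library in these 4 genes. F13a1, Cbr2 and Vsig4 were lost without 0.5 h library 1 or 3, F13a1 and Vsig4 also without 24 h library 2, and Vsig4 also without 24 h library 3 or 0.5 h library 2 (adjusted p up to 0.0714). The other lymphatic markers, 6 of 7 tested, did not pass. Csf1, the growth factor of macrophages, was at 159, 187 and 197 CPM at 24 h, against 112, 110 and 126 CPM at 0.5 h and 123, 108 and 117 CPM in control (0.64 ± 0.10; edgeR adjusted p = 0.0111, and 0.056 without 0.5 h library 1).

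Cytokines and chemokines gave few and mixed calls. Il10, an anti-inflammatory cytokine, was at 0.657, 0.177 and 1.01 CPM at 24 h, against 3.20, 3.69 and 2.80 CPM at 0.5 h and 3.20, 3.49 and 6.08 CPM in control (log2 fold change -2.38 ± 0.49, SE; edgeR adjusted p = 0.033), and it fell alone among 12 tested inflammatory cytokines, in which Csf1 rose. Cxcl2, which attracts neutrophils, was at 0.239, 0.591 and 1.08 CPM at 24 h, against 3.09, 4.23 and 3.64 CPM at 0.5 h and 6.67, 9.36 and 9.74 CPM in control (-2.52 ± 0.41; edgeR adjusted p = 0.0141), the 1 called of 5 tested chemokines of that kind. The 13 neutrophil markers gave no call and summed to 362, 371 and 394 CPM at 24 h, against 747, 537 and 392 CPM at 0.5 h. Among 20 chemokines of monocytes and lymphocytes Cxcl12 rose (0.53 ± 0.09; edgeR adjusted p = 0.0168), while Cxcl9 (-1.45 ± 0.27; 0.0227) and Ccl24 (-1.50 ± 0.34; 0.045) fell. Il10, Cxcl2, Cxcl12, Cxcl9 and Ccl24 did not pass without 0.5 h library 1 or 2. Without 24 h library 2 each was lost as well, and without 0.5 h library 3 all of these but Cxcl2 (adjusted p up to 0.175). Il10 and Cxcl9 were lost without 24 h library 1 too, and Ccl24 without 24 h library 3 or control library 1 or 2. Of 12 IL-6 family genes none passed.

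Interferon-stimulated genes varied widely within groups. All 39 tested members had a positive fold change with a median of 0.71, yet none passed. Their summed level ranged widely within each group, from 1076 CPM in library 2 to 5071 CPM in library 3 at 24 h, against 1256 to 2700 CPM at 0.5 h and 1146 to 4214 CPM in control. Isg15, an interferon-induced ubiquitin-like protein, was at 92.0, 18.9 and 158 CPM at 24 h, against 21.4, 21.8 and 62.3 CPM at 0.5 h and 63.8, 22.3 and 143 CPM in control (edgeR adjusted p = 0.576). The groups overlap, as the plot of summed levels shows.

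**Figure D4:**
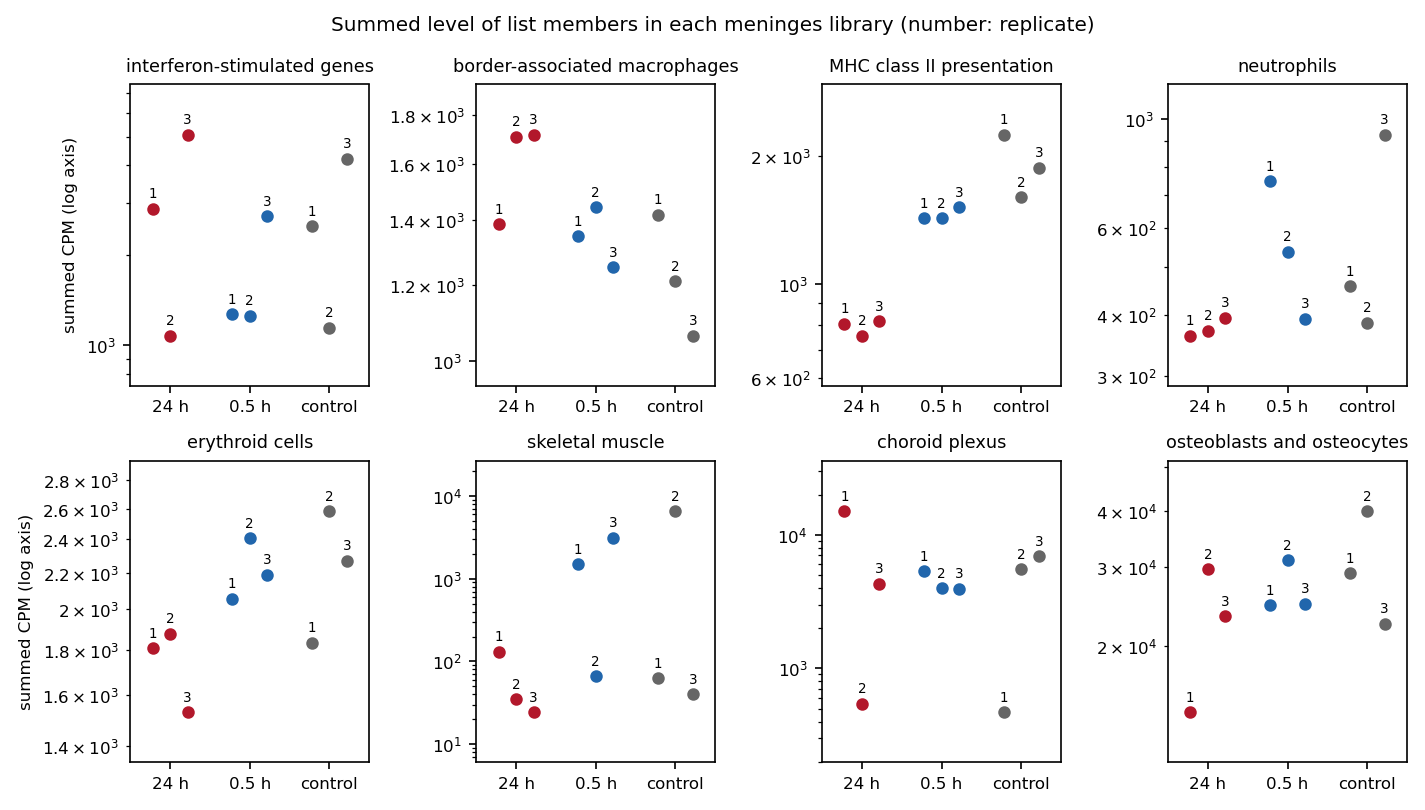
Summed level in CPM (log axes) of the tested members of 8 lists in each meninges library at 24 h, at 0.5 h and in control, with replicate numbers. Class II genes and erythroid genes (1529 to 1877 CPM against 2056 to 2406 CPM) separate 24 h from 0.5 h. For interferon-stimulated, skeletal muscle and choroid plexus genes the groups overlap.

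A few replication genes rose at 24 h. Of 35 tested genes of DNA replication and mitosis 5 rose and none fell, 33 had a positive fold change, and the median was 0.53. Over all tested genes 1.07% rose and 9381 of 18542 were positive. Mcm5, a subunit of the replicative helicase, was at 32.6, 50.1 and 36.7 CPM at 24 h, against 13.9, 15 and 9.64 CPM at 0.5 h and 16.3, 11.8 and 21.3 CPM in control (log2 fold change 1.63 ± 0.26, SE; edgeR adjusted p = 0.0156). The helicase subunits Mcm6 and Mcm4 rose by 0.80 ± 0.15 and 0.59 ± 0.13 and the replication factor Gins2 by 1.11 ± 0.23 (edgeR adjusted p = 0.0201, 0.0421 and 0.0315). Gins2 shares 2758 exon bases with Gse1 on the other strand, so its value is uncertain. Cdt1, which loads the helicase, rose by 0.79 (adjusted p = 0.0486; named after its values were seen). Genes of the same process were among the largest rises at low level. Exo1, a DNA exonuclease, was at 2.45, 4.49 and 2.28 CPM at 24 h, against 0.583, 0.939 and 0.336 CPM at 0.5 h, Kntc1, a kinetochore protein, at 4.48, 7.33 and 7.79 CPM against 1.46, 2.21 and 1.51 CPM, and E2f7, a cell-cycle repressor, at 2.21, 4.44 and 2.91 CPM against 0.699, 1.01 and 1.12 CPM (2.31 ± 0.47, 1.92 ± 0.32 and 1.75 ± 0.39). All 24 h libraries exceeded all 0.5 h libraries, which naming by size required. No member of the list passed without 0.5 h library 1 or without 0.5 h library 3, and Exo1, Kntc1 and E2f7 were lost without either of them or 24 h library 2, Exo1 and E2f7 also without 24 h library 3 or 0.5 h library 2, and E2f7 also without any control library (adjusted p up to 0.169).

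Of 75 tested cytosolic ribosomal protein genes 9 rose, by 0.36 to 1.93, with none lower, 68 positive and a median of 0.17. Over all tested genes 1.07% rose and 9381 of 18542 were positive. The summed level of the 75 was 11130, 10660 and 10770 CPM at 24 h, against 9442, 9698 and 8948 CPM at 0.5 h. In control it was 10490, 11160 and 11580 CPM, so the 24 h libraries lay within the control range and the 0.5 h libraries were the low ones. Rps2 was at 515, 584 and 557 CPM at 24 h, against 381, 384 and 337 CPM at 0.5 h and 398, 415 and 447 CPM in control (log2 fold change 0.59 ± 0.09, SE; edgeR adjusted p = 0.0117), and Rpl10a rose by 0.47 ± 0.09. Rps10, with 4.36, 5.38 and 2.91 CPM at 24 h against 1.22, 1.01 and 1.06 CPM at 0.5 h, showed the largest change (1.93 ± 0.33; edgeR adjusted p = 0.0152). Ribosomal protein genes have near-identical copies elsewhere in the genome, so single values are uncertain. Without 0.5 h library 1 none of the 75 passed, and with another library left out up to 8 did. Of 27 SR protein, splicing kinase and cold-inducible genes Rbm3, Hnrnpd (0.35) and Srsf2 (0.30) rose. Rbm3 alone of these was kept, and without 0.5 h library 1, 2 or 3, or any 24 h library, or control library 2, it was the one that passed. Nuclear oxidative phosphorylation genes, 69 tested, and nucleotide excision repair genes, 18 tested, gave no call (medians 0.081 and 0.061).

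Single genes of other pathways passed. Among 19 NRF2 and antioxidant genes Hmox1, Prdx1 (0.34) and Gclm (0.39) rose and Txnip fell, of which Hmox1 and Txnip were kept and the other pair lost without 24 h library 2 or 3 or any 0.5 h library. Among 20 p53 targets Aen rose (0.87) and Sesn1 (-0.42), Plk2 (-0.52) and Gadd45g (-0.94) fell, and none passed without 0.5 h library 1 or 2. Among 21 hypoxia and vascular genes Apln, the vascular peptide apelin, was at 7.23, 10.8 and 4.88 CPM at 24 h, against 2.21, 2.42 and 1.85 CPM at 0.5 h and 1.40, 1.30 and 1.003 CPM in control (log2 fold change 1.82 ± 0.32, SE; edgeR adjusted p = 0.0164), Hif1a rose (0.30) and Ndrg1 fell (-0.41), and none of the 3 passed without 24 h library 2 or any 1 of the 0.5 h libraries. Of 12 tested YAP and SRF targets Acta2 (0.80) and Myl9 (0.52) rose and none fell, and both were lost without 24 h library 2 or 0.5 h library 1 or 3. Nkd2, a brake on Wnt signalling, was the 1 called of 22 Wnt genes and was kept: 56.1, 69.5 and 57.3 CPM at 24 h, against 34.7, 36.0 and 37.4 CPM at 0.5 h and 47.7, 42.6 and 42.4 CPM in control (0.76 ± 0.10; edgeR adjusted p = 0.00682).

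Further single calls were not kept. Nog (-0.96) and Id2 (-0.63) fell among 23 TGF-beta and BMP genes, and neither passed without 24 h library 2 or 0.5 h library 2. Vdr, the vitamin D receptor, fell by 1.45 ± 0.28 (edgeR adjusted p = 0.043, lost without 24 h library 2 or 3, any 0.5 h library or any control library). Crabp2 (-0.64), Hspb1 (-0.59) and Dnajb9 (-0.98) were the 1 called member each of retinoid, heat shock and endoplasmic reticulum lists, and each was lost without 0.5 h library 1 or 2. Of 12 meningeal fibroblast markers Foxc2 (-0.50) and Foxc1 (-0.48) fell. Foxc2, a transcription factor of meningeal and vascular cells, was at 68.8, 63.8 and 69.4 CPM at 24 h, against 94.4, 105 and 86.9 CPM at 0.5 h and 49.7, 52.3 and 44.3 CPM in control (edgeR adjusted p = 0.0204), so that 24 h lay between 0.5 h and control. Both were lost without 24 h library 2 or 3 or 0.5 h library 1 or 2, and Foxc1 without any other library too (adjusted p up to 0.191). Alas2 was the 1 called of 9 erythroid genes (-0.56), of which all 9 were negative, and Lamc3 (-0.63) fell among 6 pial markers, of which Cxcl12 rose. Alas2 and Lamc3 were lost without any 1 of the 0.5 h libraries. Jun, Tnfaip2, Foxo1, Bhlhe41, Prelp, Rps10, Hnrnpd, Srsf2, Gclm, Hif1a, Ndrg1, Alas2 and Lamc3 share exon bases with a gene on the other strand, so their values are uncertain too. Rps10, Gclm and Hif1a also share exon bases with a gene on the same strand, Rps10 475 with RPS10-NUDT3. In all, 35 of 42 gene lists and 8 of 30 marker lists held a called gene. Of 1065 distinct list genes tested 108 passed (10.1%), against 2.34% of all tested genes. The lists were chosen with earlier results of these data known, so these counts only describe them.

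The remaining genes of largest change were low in level. Panx3, a channel protein of osteoblasts and cartilage cells, was at 8.43, 15.8 and 9.31 CPM at 24 h, against 2.21, 3.89 and 2.02 CPM at 0.5 h (log2 fold change 2.05 ± 0.37, SE; edgeR adjusted p = 0.0185), and Cdh12, a cadherin of neurons, at 3.29, 4.67 and 4.62 CPM against 1.22, 0.872 and 1.57 CPM (1.77 ± 0.31; edgeR adjusted p = 0.0177). Islr2, a neuronal membrane protein of axon growth, was at 1.02, 1.72 and 1.77 CPM at 24 h, against 4.60, 4.96 and 6.39 CPM at 0.5 h and 3.93, 4.14 and 4.60 CPM in control (-1.82 ± 0.28; edgeR adjusted p = 0.0111; kept). Islr2 shares 181 exon bases with Islr on the same strand. Padi1, a citrullinating enzyme, fell to 2.27, 4.44 and 3.17 CPM at 24 h, against 17.1, 8.18 and 10.7 CPM at 0.5 h (-1.86 ± 0.30; edgeR adjusted p = 0.014), and Fgf23, a phosphate hormone of bone, to 0.538, 0.651 and 0.887 CPM against 2.27, 4.76 and 3.14 CPM (-2.28 ± 0.40; edgeR adjusted p = 0.0166). Padi1 shares 1200 exon bases with Gm13032 on the other strand, and Cdh12 198 with Gm49685 on the same strand. Teddm2, given next, shares 116 with Glul on the other strand. Hmcn2 (-2.90), Aqp7 (-2.48), Gkn3 (-2.02), Teddm2 (-1.88) and Nppc (-1.87) passed closer to the threshold (edgeR adjusted p of 0.0295 to 0.0493). Apart from Islr2 none of these was kept: Padi1 was lost without 24 h library 3 or 0.5 h library 1, Panx3 without 24 h library 2 or 0.5 h library 1 or 3, Cdh12 without 24 h library 2 or 3 or 0.5 h library 1 or 2, Fgf23 without 24 h library 2 or 0.5 h library 2 or 3, and the last 5 without any 1 of the 0.5 h libraries and others (adjusted p up to 0.166).

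The change between the times was compared with that in skull and brain, with a test of the difference in a fit of all 27 libraries. In skull alone 2811 of 17426 genes (16.1%) differed between 24 h and 0.5 h, and in brain alone 40 of 18172 (0.22%). The meninges change differed from the skull change in 112 of 21500 genes (0.521%), 63 higher (0.293%) and 49 lower (0.228%), and from the brain change in 86 (0.4%), 52 higher (0.242%) and 34 lower (0.158%). For skull the count was 68 without meninges 24 h library 1, 41, 38 and 51 without meninges 0.5 h library 1, 2 and 3, 39, 192 and 27 without skull 24 h library 1, 2 and 3, and 44 and 50 without skull 0.5 h library 2 and 3. For brain it was 36 without meninges 24 h library 2, 54 and 52 without meninges 0.5 h library 1 and 2, 40 without brain 24 h library 1, and 43, 54 and 44 without brain 0.5 h library 1, 2 and 3. On the common scale of this fit, Chil1 was at 118, 135 and 91.2 CPM at 24 h against 15.3, 14.5 and 14.6 CPM at 0.5 h in meninges, at 51.4, 59.3 and 83.5 CPM against 56.9, 50.03 and 78.1 CPM in skull, and at 6.51, 4.73 and 6.22 CPM against 6.64, 6.34 and 6.70 CPM in brain. In skull and in brain the 2 times overlapped. The log2 fold change in meninges exceeded that in skull by 2.89 ± 0.34 (SE; edgeR adjusted p = 0.000103) and that in brain by 3.13 ± 0.37 (edgeR adjusted p = 0.000694), and both differences held with each library left out.

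Aanat, at 1.58, 2.36 and 2.14 CPM at 24 h against 0.911, 1.59 and 2.03 CPM at 0.5 h in brain, differed from brain by -3.46 ± 0.59 (SE; edgeR adjusted p = 0.00953), also with each library left out. In skull, where it was near the limit of measurement, Aanat had 4 counts over the 24 h libraries and 18 over the 0.5 h libraries. Pi16 differed from brain by -2.26 ± 0.47 (edgeR adjusted p = 0.0288), which was lost without meninges 24 h library 1 or 2 or 0.5 h library 3, or without brain 24 h library 1 or 3 or 0.5 h library 2 or 3 (adjusted p up to 0.109). The replication genes Clspn and Gins2 moved apart from brain by 2.95 ± 0.48 and 2.47 ± 0.49. Clspn was at 6.21, 12.1 and 7.32 CPM at 24 h against 3.41, 2.84 and 2.04 CPM at 0.5 h in meninges, and at 2.88, 2.84 and 0.622 CPM against 6.77, 5.16 and 3.99 CPM in brain (edgeR adjusted p = 0.00777). That of Clspn held with each library left out, and that of Gins2 was lost without meninges 24 h library 2, brain 24 h library 1 or 2 or brain 0.5 h library 2 or 3 (adjusted p up to 0.0691).

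Among the largest differences from skull were genes that changed there and did not pass in meninges. Prg4, lubricin, a joint and surface lubricant, was at 52.3, 90.1 and 95.3 CPM at 24 h against 53.2, 44.6 and 35.8 CPM at 0.5 h in meninges, and at 1259, 882 and 1567 CPM against 9.93, 5.26 and 2.71 CPM in skull, a difference of -6.87 ± 0.58 (SE; edgeR adjusted p = 2.32e-06). Prg4 shares 204 exon bases with Tpr on the other strand. Arg1, arginase of repair macrophages, stayed near the limit of measurement in meninges, with 40 counts over the 24 h libraries against 37 over the 0.5 h libraries, and 1548 counts at 24 h against 27 at 0.5 h in skull (-5.76 ± 0.89; edgeR adjusted p = 0.00301). Crabp1, a retinoid-binding protein of dural fibroblasts, was at 19.7, 29.9 and 28.9 CPM at 24 h against 39.8, 38.01 and 34.5 CPM at 0.5 h in meninges, and at 7.04, 5.34 and 3.25 CPM against 0.387, 0.127 and 0.472 CPM in skull, a difference of -4.46 ± 0.57 (edgeR adjusted p = 0.000221). These 3 differences held with each library left out. For Mmp3 and Timp1 the difference from skull was -0.35 ± 0.50 and -0.95 ± 0.49 and did not pass (edgeR adjusted p = 0.895 and 0.516).

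**Figure D5:**
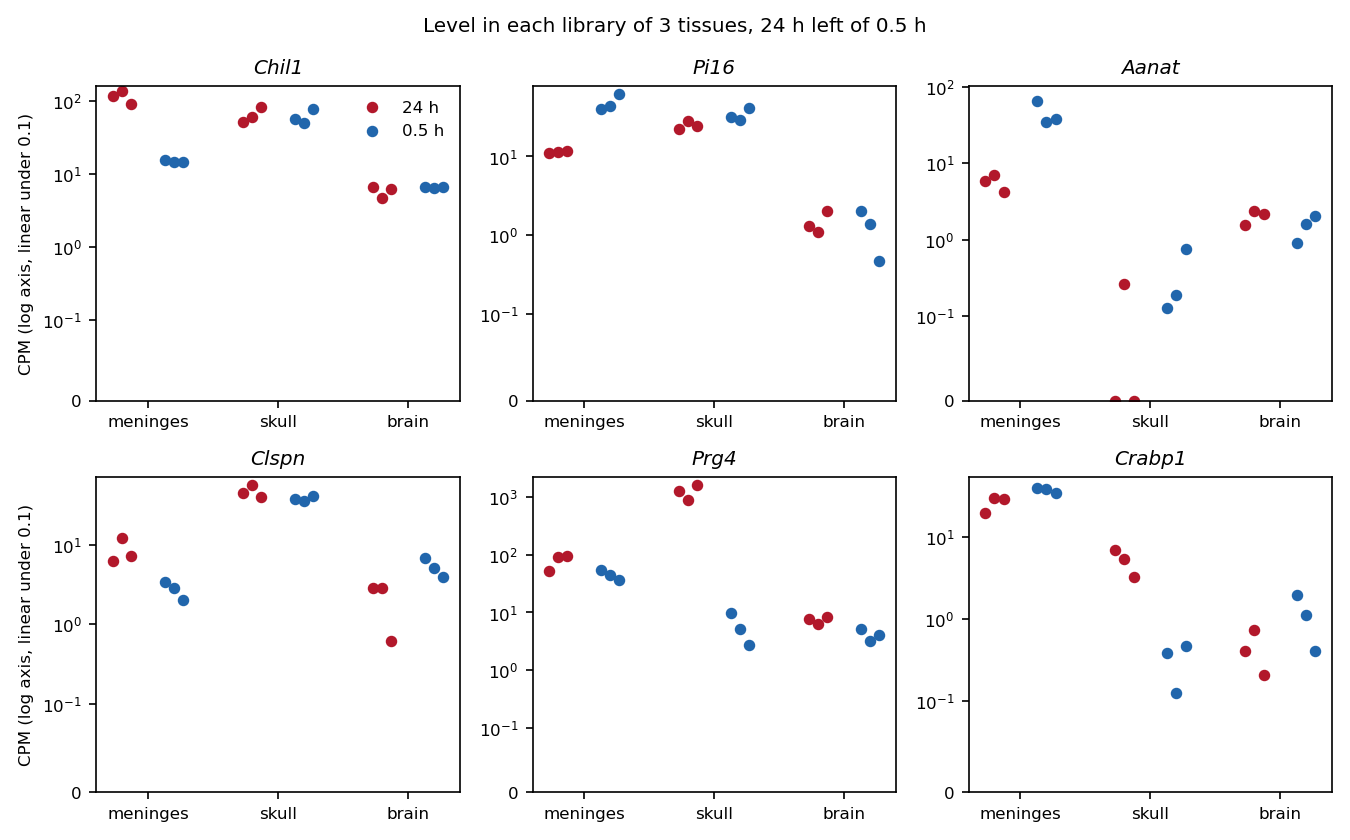
Level in CPM on the scale of the 27-library fit (log axes, linear under 0.1) of 6 genes in each library of meninges, skull and brain, with 24 h in red to the left of 0.5 h in blue. The 2 times do not overlap in meninges for Chil1, Pi16, Aanat, Clspn and Crabp1, nor in skull for Prg4 and Crabp1. In brain they do not overlap for Clspn, which was lower at 24 h. Crabp1 did not pass in meninges (edgeR adjusted p = 0.148).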

How the data were processed

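Polyadenylated RNA was isolated from total RNA of meninges scraped off the skullcap, per the labels' protocols. The authors deposited 1 table of raw counts per gene symbol for 27 libraries. HISAT2 2.1.0 and the mm10 build are named in the submitters' processing notes. Which tool and annotation counted the reads, and whether strand was used, is not given in the sources used here. Libraries held 14208961 to 27305294 counts, so precision is low for genes under about 1 CPM. Intervals cover counting error only, since they rest on counts pooled over the libraries of a group. Molecular identifiers are not mentioned, so copies made in amplification may be counted too.

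Counts of the 9 meninges libraries were tested with edgeR 4.0.16 in R 4.3.3 (quasi-likelihood F test with the robust option, TMM scaling, filterByExpr with a minimum count of 10 and a minimum total of 15) with 1 mean per group and the contrast 24 h minus 0.5 h, adjusted by Benjamini-Hochberg over all tested genes at 0.05. Differences from skull and brain were interaction contrasts in a fit of all 27 libraries. Levels are CPM on TMM-scaled totals. SE was taken as the size of the log2 fold change divided by the root of F. Genes were located through GENCODE M21, which matched 33392 of 37095 symbols. Lists are described by counts and medians only.

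The members and lists were chosen with earlier results of these data known. Genes were named by size (12 per direction, mean of at least 1 CPM, groups not overlapping), by p (5 per direction), by list (up to 4 of smallest p) and by tissue difference (5 per direction); genes outside it are said to be, and some genes the rule names are not reported here. Alternatives were RLE scaling, other filters and settings, DESeq2 1.42.0, limma 3.58.1 (voom), a GC content and length offset, a replicate block, other sets of libraries and leaving out each library. Replicates of a group differed by more than sampling noise. Tested on simulated data, 49% of genes changed 2-fold and 81% of genes changed 4-fold were called between 24 h and 0.5 h among 18542 genes. There 10 unchanged genes were called as well. For the difference from skull, 40% and 59% were called among 21500 genes, with 8 unchanged genes called. Whether the libraries without UVB are the non-cranial irradiation that the series text mentions is not given in the sources used here.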

Additional observations from a re-analysis of the deposited data

Results flagged for a closer look

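The change between 24 h and 0.5 h in meninges differed from the same change in another tissue in the genes given here, by a test of the difference itself. The values are the meninges log2 fold change minus that of the other tissue, with edgeR adjusted p-values from the fit of 27 libraries.

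Chil1, a chitinase-like protein, differed from skull by 2.89 and from brain by 3.13, and Aanat, the melatonin synthesis enzyme, differed from brain by -3.46. In skull, Aanat had 18 counts over the 0.5 h libraries and 4 over the 24 h libraries. The differences from skull of Prg4 (-6.87), Arg1 (-5.76), Crabp1 (-4.46) and Dlk2 (-3.22) also held with each library left out, and so did those from brain of Clec12a (3.82) and Clspn (2.95). Dlk2 had 4 counts over the skull 0.5 h libraries. Clec12a did not pass in meninges itself (log2 fold change 0.30, edgeR adjusted p = 0.563). In brain it had 63 counts over the 0.5 h libraries and 5 over the 24 h libraries. The Clec12a difference was lost with voom, and that of Clspn in a fit of the 4 groups alone.

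The other differences did not hold with each library left out. Against skull these were Cdh12 (4.32), Aqp4 (3.35) and Aldh1a7 (3.24), lost without 6, 7 and 11 single libraries (highest adjusted p of 0.192, 0.118 and 0.132). Cdh12 had 2 counts over the skull 24 h libraries. Against brain these were Gins2 (2.47), Chst13 (-5.17), Pi16 (-2.26), Ripor3 (-2.19) and Zbtb16 (-2.03), lost without 5, 10, 7, 3 and 10 single libraries (highest adjusted p of 0.0691, 0.135, 0.109, 0.0676 and 0.129). Chst13 had 0 counts over the brain 0.5 h libraries, so its value depends on the prior count of the fit and is no bound.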

How the results depend on the processing

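Between 24 h and 0.5 h in meninges, where 434 genes passed, DESeq2 called 947 (429 higher, 518 lower), the replicate block 241, and the replicate block with the GC content and length offset 264. The same numbers did not deviate together (correlations of 0.0208, 0.167 and -0.184), so the replicate numbers are not taken as pairs. Leaving out 1 library gave 73 to 476 genes. The other settings gave 302 to 621, with voom at 53% higher against 45.6% in the count of 434. For the difference from skull, where 112 passed, DESeq2 called 395, voom 216, the replicate block 55, the block with the offset 59 and the 4 groups alone 63, and leaving out 1 library gave 27 to 192. For the difference from brain, where 86 passed, DESeq2 called 356, the replicate block 52 and the 4 groups alone 33, and leaving out 1 library gave 36 to 93. The cause was not tested. No named gene changed direction where it was called: of its repeats under other settings 5460 kept their side of the threshold, 721 lost it and 139 gained it. Of the 434 genes, 61 passed in each fit that left out 1 library, and why the others were lost was not tested. Each adjusted p given as up to a value covers only those fits. Over all 27 libraries 318 of the 434 passed. Among those that did not were Col5a3, Gnat2, Crabp2, Cxcl2, Cxcl9, Foxc2, F13a1, Cbr2, Csf1 and Cxcl12. Dbp did not pass without the filter on low counts, with the replicate block or in a fit of the 2 groups alone.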
